A study of Cicer arietinum with 32 samples.

Results

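The end of the root was compared with the whole root of chickpea (Cicer arietinum, genotype ICC4958), as 1 pair of tissues/organs within an expression atlas made by RNA-seq. Root tip and root, both labelled as seedling material, share the genotype and carry no treatment in the labels. Each replicate pooled material of several plants. The sources give the age of the seedlings used for root tips differently, and the root tips were a very short terminal piece of the root. Each tissue/organ has 1 deposited FPKM value (fragments per kilobase of transcript scaled to library size) for each of 38818 transcripts, described as the average of its replicate libraries. The comparison took every transcript with an FPKM of at least 0.5 in root tip or in root, and 24239 of the 38818 transcripts met this. The measure throughout is the difference in log2(FPKM + 1), root tip minus root, and a transcript was counted as higher or lower where the 2 values lay at least 1 apart on that scale, which is 2-fold in FPKM + 1. With 1 value per tissue/organ there is no replicate error and no test, and every difference given here describes these 2 columns of values.

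A root tip holds the root cap, the stem cell niche and the meristem, where cells divide and grow without large vacuoles. Behind it, cells elongate and then differentiate into root hairs, endodermis, phloem and lignified xylem, and take up water and ions through channels and carriers. A whole root contains the tip as a small share of its mass, so the comparison sets dividing tissue against mostly mature tissue. In bulk tissue, fewer cells of a type and less RNA per cell cannot be told apart.

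The values of the 2 tissues/organs differ in form. All values of root were whole multiples of 0.01, which was the case in 1 of the 31 tissues/organs read here, whereas root tip values also ended in 3 or 7 at the third decimal, as means of 3 libraries do. A transcript was listed above 0 for 77.9% of transcripts in root tip and 70.7% in root, against 70.6% to 83.7% in the other tissues/organs. At exactly 0.01 there were 568 transcripts in root tip after rounding to 2 decimals and 112 in root. Whether the root values are 1 library or rounded means cannot be told apart from them. The files hold no read counts, so the depth behind single values was not analysed here, and 12 transcripts listed at 0 in root had an FPKM of at least 1 in each of the other 30 tissues/organs, against 1 such transcript in root tip. A transcript listed at 0 is therefore given only as listed at 0. FPKM summed to 816427 in root tip and 857445 in root, and the 10 highest transcripts made up 5.66% of the sum in root tip and 13.6% in root.

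Of the 24239 transcripts compared, 5385 (22.2%) were higher in root tip and 4623 (19.1%) were lower, so that 41.3% lay at least 1 apart and 14231 (58.7%) less. The median difference was 0.13, so root tip values were slightly higher across all transcripts, and the medians of gene lists below are to be read against it. At a difference of at least 2, 1549 transcripts were higher and 1797 were lower, and at a difference of at least 5, 37 were higher and 103 were lower. The larger differences thus lay more often on the side of root. Root was listed at 0 for 447 (8.30%) of the transcripts higher in root tip, and root tip was listed at 0 for 198 (4.28%) of those lower in root tip. Transcripts just inside the minimum had an FPKM of 0.5 in the higher tissue/organ, and those just outside it had 0.497. None of the 1994 transcripts with an FPKM under 1 in both could be counted as higher or lower with 1 added to each value.

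**Figure D1:**
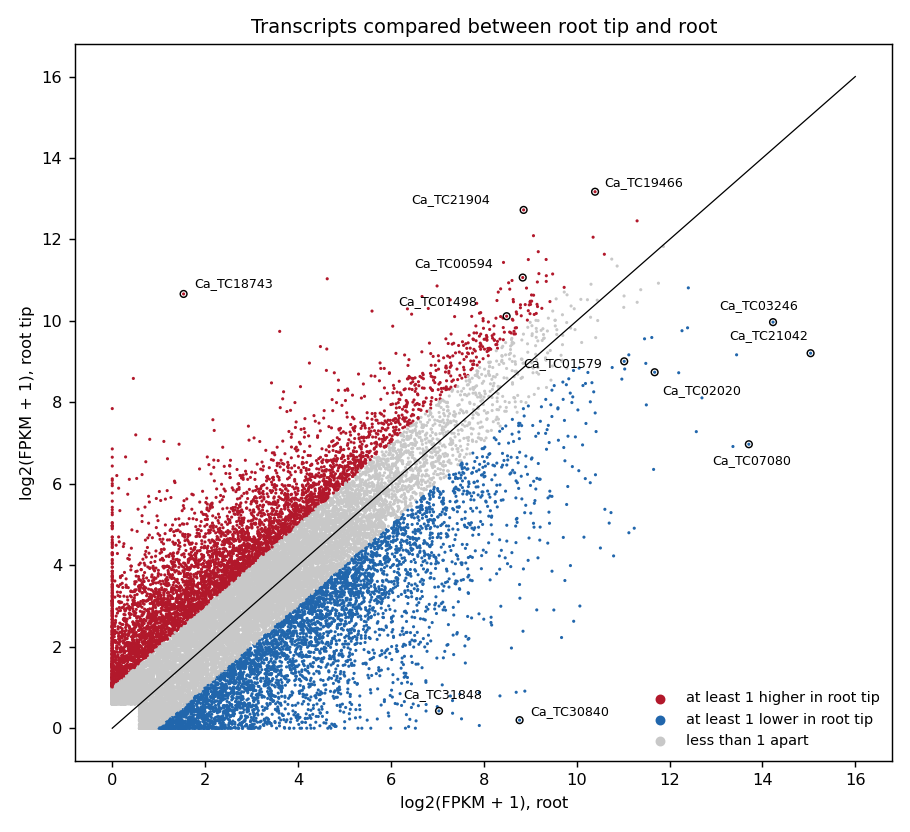
Each point is 1 of the 24239 transcripts compared, with log2(FPKM + 1) in root on the horizontal axis and in root tip on the vertical axis, and the line marks equal values. The 5385 red points are at least 1 higher in root tip and the 4623 blue points at least 1 lower, and circled transcripts are described in the text.

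Both tissues/organs were set against markers of the cell types a root can hold. Genes of dividing cells were higher in root tip. Cyclin A2;3 (Ca_TC01204), which acts in S phase and G2, had 29.9 FPKM in root tip and 2.48 in root. Cyclin B2;3 (Ca_TC33192), a mitotic cyclin listed as not aligned to the genome, had 7.39 in root tip and 1.23 in root. Kinesin 1 (Ca_TC00255), a spindle motor best matched to Arabidopsis ATK1, had 18.6 in root tip and 1.04 in root. Histone H2A 12 (Ca_TC01498) had 1109 in root tip and 359 in root. These 4 of the 6 markers compared were at least 1 higher in root tip, and the 2 transcripts of the MCM family, part of the replicative helicase, were close at 0.543 and 1.32 in root tip and 0.170 and 1.51 in root. All 4 were also higher in SAM than in shoot, for example cyclin A2;3 with 25.6 FPKM in SAM and 10.2 in shoot. Summed over the 8 markers of dividing cells, FPKM was 1167 in root tip and 366 in root, and nearly all of both sums was histone H2A 12.

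Of the 4 xylem and secondary wall markers compared, 2 were at least 1 lower in root tip and none was higher. TED6 (Ca_TC12823), a membrane protein of differentiating vessel elements in Zinnia and Arabidopsis, had 0.097 FPKM in root tip and 8.79 in root. CESA8 (Ca_TC00491), a cellulose synthase subunit of the secondary wall, had 0.857 in root tip and 8.29 in root. The other two lay less than 1 apart, as laccase 17 (Ca_TC32669), which polymerizes lignin, had 0.290 in root tip and 1.36 in root, and MAP70-5 (Ca_TC00821), a microtubule-associated protein, had 0.520 in root tip and 1.10 in root. CESA8 was the single member compared of the cellulose synthase and COBRA list, and TED6 was the 1 of 4 tracheary and vascular transcripts compared that was lower, with none higher. The 7 xylem and secondary wall markers summed to 1.85 FPKM in root tip and 19.7 in root. PHABULOSA (Ca_TC00936), an HD-ZIP III factor that patterns the root vasculature in Arabidopsis, had 1.42 in root tip and 27.7 in root. The phloem potassium channel AKT2/3 was low in both, with 0.783 and 2.16 in root tip and 0.170 and 4.90 in root for its 2 transcripts, and sucrose-proton symporter 2 stayed under 0.5 in both for its 4 transcripts.

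Few of the listed patterning factors were detected. A GRAS factor with SCARECROW as its best Arabidopsis match (Ca_TC35018) had 5.79 FPKM in root tip and was listed at 0 in root. SCARECROW maintains the stem cell niche and endodermis in Arabidopsis. This transcript, listed as not aligned to the genome, was also listed at 0 in root hair, SAM, shoot and germinating seedling, and it had 2.97 in nodule. GLABRA2 (Ca_TC01246), a factor of the root epidermis, was close at 0.947 in root tip and 0.530 in root. Root hair specific 14 (Ca_TC00743) had 4.63 in root tip and 0.0900 in root, against 1025 in root hair. Haemoglobin 2 (Ca_TC36728), a nodule marker, was listed at 0 in both. STM (Ca_TC00756), a KNOX factor of the shoot meristem, had 0.243 FPKM in root tip but 11.7 in root, compared with 31.6 in SAM, 28.7 in shoot and 29.1 in pedicel. The 72 listed photosynthesis transcripts summed to 48.3 FPKM in root tip and 84.6 in root, against 3035 in shoot and 37261 in nodule, so the sum is not a measure of green tissue alone. Of the 16 photosynthesis transcripts compared, 5 (31.25%) were higher in root tip and 7 (43.75%) were lower, against 22.2% and 19.1% of all transcripts compared. Among the 5 compared that were not listed as unaligned to the genome, 1 was higher and 3 were lower. The photosystem I subunit PSAF (Ca_TC00866) had 2.71 FPKM in root tip and 22.7 in root, against 1727 in shoot, and light-harvesting protein LHCB6 (Ca_TC00156) had 0.533 in root tip and 15 in root. The part of shoot tissue in the root values was not tested. Of the 31 markers, 17 reached an FPKM of 0.5 in root tip or root.

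**Figure D2:**
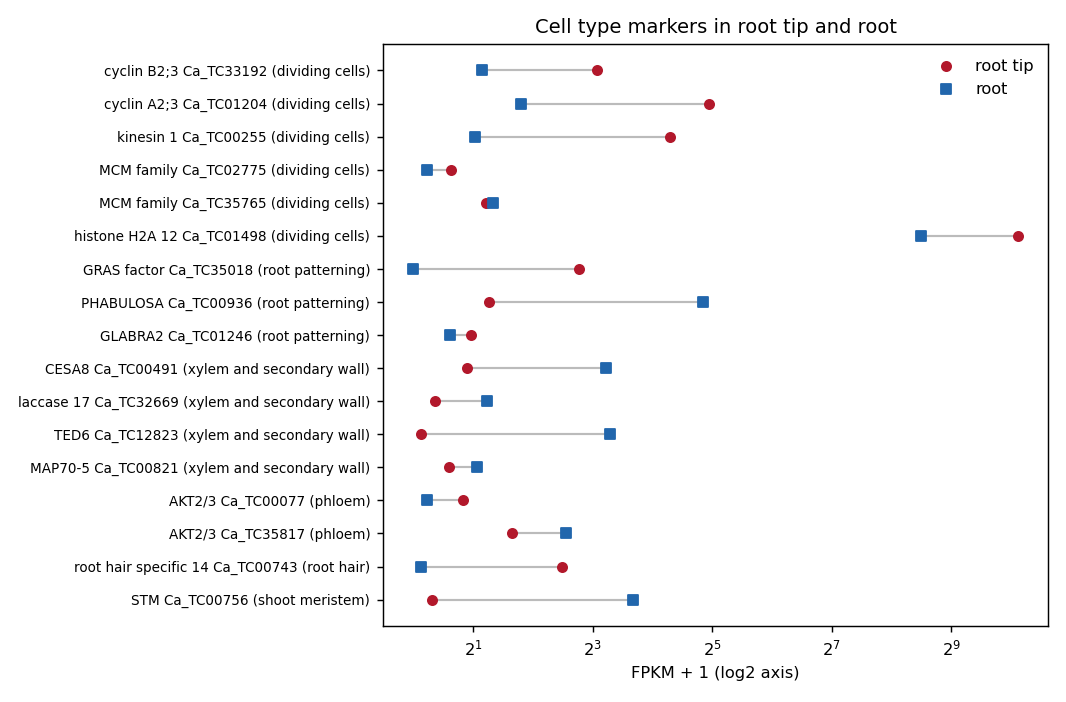
Each row is 1 of the 17 markers compared, with FPKM + 1 on a log2 axis in root tip (red circles) and root (blue squares) and its cell type in brackets. The cyclins, kinesin 1 and histone H2A 12 lie to the right in root tip, while CESA8, TED6, PHABULOSA and STM lie to the right in root.

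The gene lists were matched on descriptions, which were at hand for 1747 of the transcripts compared. Of these, 413 (23.6%) were higher in root tip and 321 (18.4%) were lower, with a median difference of 0.19. Without those listed as not aligned to the genome, 238 of 1219 (19.5%) were higher and 243 (19.9%) were lower, with a median of 0.10. The status of not aligned is given for only some of the named transcripts. Over all transcripts compared, 22.2% were higher and 19.1% were lower. In the list of cyclins, cyclin-dependent kinases and the anaphase-promoting complex, 4 of the 7 members compared were higher in root tip and 1 was lower, with a median of 1.35 against 0.13 over all transcripts. Beside both cyclins, subunit 2 of the anaphase-promoting complex (Ca_TC31894), which degrades mitotic cyclins, had 7.25 FPKM in root tip and 1.84 in root, and subunit 8 (Ca_TC00564) had 3.63 in root tip and 0.810 in root. Of these, cyclin B2;3 and subunit 2 were listed as not aligned to the genome. Cyclin D6;1 (Ca_TC01771), linked to formative divisions in the Arabidopsis root, was close at 1.93 in root tip and 1.08 in root. The kinase that binds cyclins in S phase and mitosis was not higher in root tip. The 2 transcripts described as cell division control 2 had 81.5 and 11.6 FPKM in root tip (Ca_TC01003 and Ca_TC01002) and 84.5 and 27.5 in root. A second motor (Ca_TC01232), described as an ATP binding microtubule motor, had 44.3 in root tip and 12.4 in root.

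In the list of DNA replication, histones and genome maintenance, 4 of 13 members (30.8%) were higher in root tip and 1 (7.69%) was lower. The shares over all transcripts compared were 22.2% and 19.1%. The median of the list was 0.40. A helicase best matched to Arabidopsis RECQl4A (Ca_TC00070) had 2.84 FPKM in root tip and 0.430 in root, and a RAD3-like helicase (Ca_TC01224), of the family that unwinds structured DNA, had 6.94 in root tip and 1.65 in root. DNA topoisomerase 1 beta (Ca_TC33419) had 2.66 in root tip and 0.140 in root, but a second transcript of that description (Ca_TC34248) had 8.30 in root tip and 11.7 in root. Ca_TC33419 and Ca_TC34248 were listed as not aligned to the genome. DNA ligase IV (Ca_TC02379), which joins double-strand breaks, was 9.05-fold higher in root, with 6.44 in root tip and 58.3 in root.

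Ribosomal proteins were the list with the most members higher in root tip. Of 39 compared, 24 were higher and 2 were lower, which is 61.5% higher against 22.2% of all transcripts compared, and the median difference was 1.39. Summed over the 81 listed transcripts, FPKM was 13235 in root tip and 5102 in root. The most abundant member, described as ribosomal protein L18ae (Ca_TC00594), had 2142 FPKM in root tip and 457 in root. Ribosomal protein L27e (Ca_TC00061) had 818 in root tip and 156 in root, and a protein of the L1p/L10e family (Ca_TC01917) had 939 in root tip and 227 in root. The 3 largest differences belonged to less abundant members, namely L22p/L17e (Ca_TC33245) with 27.8 in root tip and 1.59 in root, an L10 family protein (Ca_TC00109) with 41.5 in root tip and 3.12 in root, and an L4/L1 family protein (Ca_TC00755) with 58.4 in root tip and 9.07 in root. The 2 members lower in root tip had counterparts of like description that were not lower. Ribosomal protein S1 had 2.05 in root tip and 8.42 in root as Ca_TC01021, but 31.3 in root tip and 22.7 in root as Ca_TC01020, with which it overlaps in position, and a protein of the L18ae family (Ca_TC02862) had 9.02 in root tip and 57.0 in root. RSEM, the program that gave these values, divides reads among near-identical copies, so single paralogs are less certain than the sum. Without the transcripts listed as not aligned to the genome, 12 of 24 ribosomal proteins were higher in root tip and 2 were lower, with a median of 1.06. The same sum was 14308 in embryo, 11862 in endosperm, 10315 in nodule, 9494 in SAM and 8746 in young leaf, against 4182 in shoot. In nodule, a transcript described as ribosomal protein S2 (Ca_TC32114) and listed as not aligned to the genome had 7648 FPKM.

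Translation factors had a median difference of 0.70, with 5 of 17 members (29.4%) higher in root tip, against 22.2% of all transcripts, and 1 lower. The largest difference was in a transcript of eukaryotic translation initiation factor 3C (Ca_TC34669), a scaffold of the initiation complex, with 14.7 FPKM in root tip and 1.32 in root, while the other 2 transcripts of this factor had 71.3 (Ca_TC00037) and 59.6 (Ca_TC00038) in root tip and 32.1 and 32.5 in root. Ca_TC34669 was listed as not aligned to the genome, and the other 2 were not. The sum over the list was nevertheless lower in root tip, at 1976 against 4221 in root, and 1 transcript held most of it. A SUI1 family initiation factor (Ca_TC02020) had 427 FPKM in root tip and 3279 in root. Among heat shock proteins and chaperones 5 of 22 (22.7%) were higher, a share near that of all transcripts, and 1 (4.55%) was lower, with a median of 0.27. A cpn60 chaperonin (Ca_TC34971) had 28.1 in root tip and 8.66 in root. A chaperonin-60alpha match (Ca_TC33622), a chaperonin of plastids in Arabidopsis, had 91.6 in root tip and 30.3 in root. Ca_TC34971 and Ca_TC33622 were listed as not aligned to the genome. A prefoldin subunit (Ca_TC00905) had 12.3 in root tip and 34.9 in root.

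Genes of the primary wall lay on both sides. In the list for wall loosening and pectin, 4 of 11 (36.4%) were higher in root tip and 3 (27.3%) were lower, against 22.2% and 19.1% of all transcripts. A pectin lyase-like protein (Ca_TC35226) had 7.31 FPKM in root tip and 1.04 in root, and 2 others of that description had 1.91 (Ca_TC01016) and 16.3 (Ca_TC01164) in root tip and 0.230 and 6.79 in root. The endoglucanase glycosyl hydrolase 9A1, known as KORRIGAN, was abundant as Ca_TC00881, with 107 in root tip and 216 in root, and as Ca_TC00882 it had 68.8 in root tip and 134 in root. These 2 transcripts overlap in position, so their reads cannot be fully separated. Another transcript of this description, Ca_TC38695, had 1.64 in root tip, was listed at 0 in root and was counted as higher. A xyloglucan endotransglucosylase/hydrolase (Ca_TC33667), which cuts and rejoins wall xyloglucan, had 4.23 in root tip and 14.6 in root. Ca_TC35226 and Ca_TC33667 were listed as not aligned to the genome.

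For lignin and phenylpropanoid enzymes 2 of 8 were higher and 2 were lower, which is 25% each way and near the shares over all transcripts. Cinnamoyl CoA reductase 1 (Ca_TC01100), the entry step to monolignols, had 28.3 FPKM in root tip and 77.3 in root, and 4-coumarate:CoA ligase 2 (Ca_TC01072) had 5.61 in root tip and 21.6 in root. A second 4-coumarate ligase transcript (Ca_TC34718) had 15.3 in root tip and 5.15 in root, and phenylalanine ammonia-lyase 2 (Ca_TC35301) had 3.42 in root tip and was listed at 0 in root. These 2 higher members were listed as not aligned to the genome, and the 2 lower ones were not. Class III peroxidases, which oxidize phenolics in the wall, had 5 of 9 members lower in root tip and 1 higher, with a median of -1.0. Over all transcripts compared, 19.1% were lower and 22.2% were higher. Ca_TC00923 had 81.6 in root tip and 201 in root, Ca_TC00925 had 54.8 in root tip and 131 in root, and Ca_TC00926 had 1.19 in root tip and 12.7 in root. Their neighbour on the same chromosome, Ca_TC00922, was by far the most abundant peroxidase and was close in both, with 1259 in root tip and 987 in root. The list's sum was therefore 1608 in root tip and 1453 in root although most members were lower. Ca_TC01999 was the member higher in root tip, with 147 in root tip and 45.8 in root.

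Water channels and carriers lay on both sides, where over all transcripts 22.2% were higher and 19.1% were lower. Of 15 aquaporins compared, 5 (33.3%) were lower and 3 (20%) were higher, with a median of -0.78, and their FPKM summed to 547 in root tip and 2142 in root. This sum is nearly all 1 water channel. Plasma membrane intrinsic protein 2 (Ca_TC01579) had 514 in root tip and 2082 in root. NOD26-like intrinsic protein 6;1 (Ca_TC01101), a boron channel in Arabidopsis, had 0.487 in root tip and 7.58 in root, and NOD26-like intrinsic protein 1;2 (Ca_TC00515) had 4.81 in root tip and 16.4 in root. The 3 aquaporins higher in root tip were all listed as not aligned to the genome, and the highest of them (Ca_TC32814) had 9.77 in root tip and 4.07 in root. All 3 transcripts compared for sugar and amino acid transport were lower in root tip, namely 2 of polyol/monosaccharide transporter 5 with 23.4 (Ca_TC21993) and 8.43 (Ca_TC21994) in root tip and 67.7 and 53.0 in root, and amino acid permease 3 (Ca_TC12788) with 5.18 in root tip and 13.7 in root. In ion and nutrient transport 3 of 14 (21.4%) were lower and 2 (14.3%) were higher, so the lower share was near that of all transcripts. Potassium uptake permease 11 (Ca_TC02313) had 9.07 in root tip and 59.1 in root, sulfate transporter 3;4 (Ca_TC01218) had 0.290 in root tip and 4.25 in root, and a vacuolar iron transporter family protein (Ca_TC00133) had 395 in root tip and 194 in root.

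**Figure D3:**
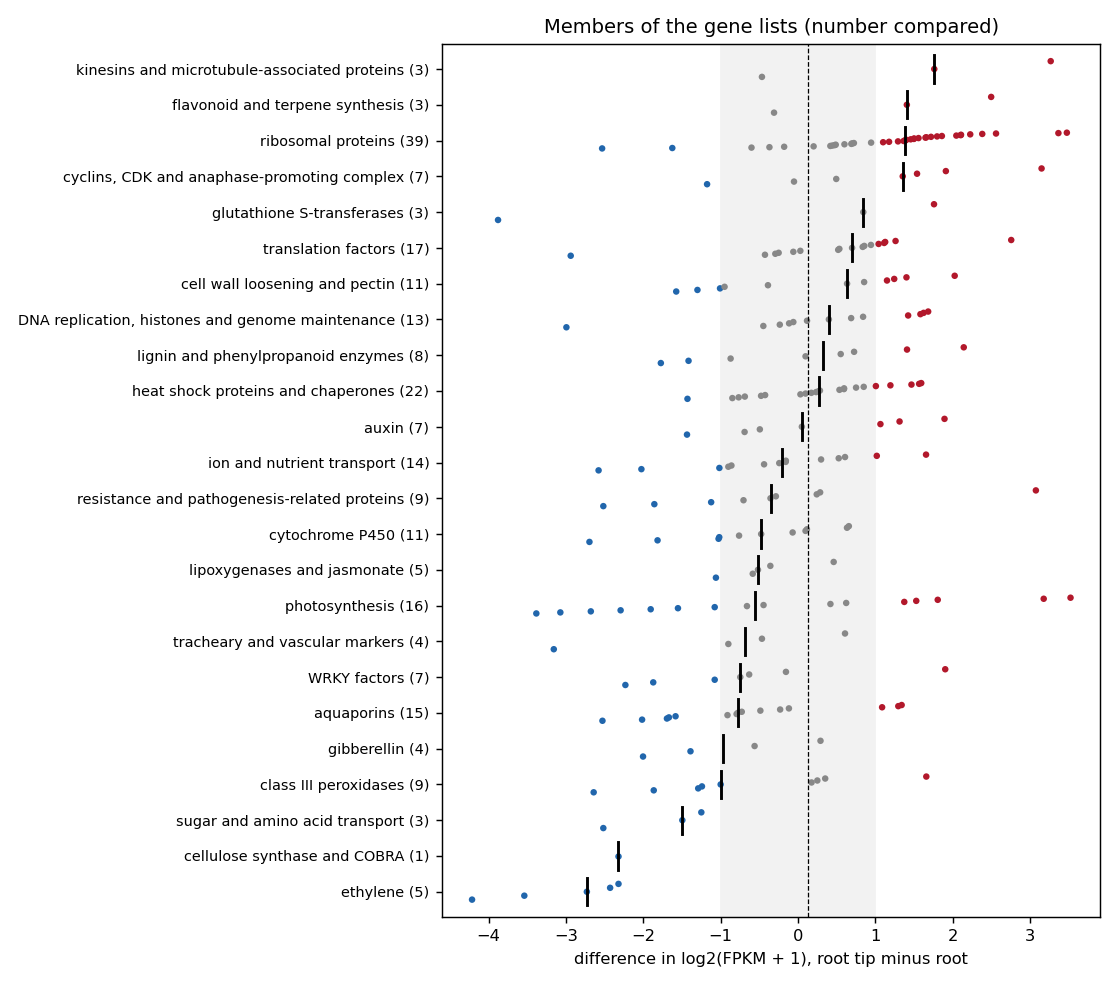
Each point is 1 compared member of a gene list, placed by its difference in log2(FPKM + 1), root tip minus root, with red for at least 1 higher in root tip, blue for at least 1 lower and grey between. Black bars are list medians and the dashed line is the median over all transcripts, 0.13. Ribosomal proteins spread to the right of it, and all 5 ethylene transcripts lie to the left of -2.

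Ethylene was the hormone with the largest median difference among the lists. All 5 transcripts compared were lower in root tip, by 2.32 to 4.21, with a median of -2.73, and they summed to 27.2 FPKM in root tip and 291 in root. Among all transcripts compared, 19.1% were lower. The ethylene-forming enzyme, ACC oxidase, makes the hormone itself. Its 2 transcripts, which overlap in position, had 11.8 (Ca_TC00768) and 3.47 (Ca_TC00769) FPKM in root tip and 68.2 and 28.7 in root. S-adenosylmethionine synthetase 1 (Ca_TC35193), which makes the precursor of ethylene and the methyl donor of many other reactions, had 3.88 in root tip and 161 in root, and its level in root tip was the lowest but 1 of the 31 tissues/organs. Of the response factors, ERF4 (Ca_TC00405), a repressor in Arabidopsis, had 7.12 in root tip and 93.3 in root, ERF1 (Ca_TC00429), an activator, had 0.673 in root tip and 7.36 in root, and the ethylene-regulated nuclear protein ERT2 (Ca_TC00969) had 4.11 in root tip and 93.9 in root. Root was the highest of the 31 tissues/organs for ERF4 and ERT2. Outside the ethylene list, a pair of AP2/ERF transcripts was described only as integrase-type DNA-binding proteins. They had 0.573 (Ca_TC02637) and 0.373 (Ca_TC02640) in root tip and 77.2 and 39.3 in root. AP2-EREBP factors higher in root tip are given below.

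Enzymes that make and inactivate gibberellin were among the transcripts lower in root tip. GA requiring 3 (Ca_TC01080), ent-kaurene oxidase, an early step, had 2.98 FPKM in root tip and 88.9 in root, a 29.8-fold difference. Gibberellin 3-oxidase 1 (Ca_TC01202), the last activating step, had 0.880 in root tip and 6.54 in root, and gibberellin 2-oxidase 1 (Ca_TC34435), which inactivates the hormone, had 1.17 in root tip and 4.68 in root. In the gibberellin list 2 of 4 were lower and none was higher, where over all transcripts compared 19.1% were lower and 22.2% were higher. Auxin genes had a median of 0.05, close to all transcripts, with 3 of 7 higher and 1 lower. Auxin response factor 6 (Ca_TC00546) had 185 in root tip and 88.0 in root, and an enoyl-CoA hydratase described as indole-3-butyric acid response 10 (Ca_TC00366) had 48.6 in root tip and 19.0 in root. Auxin response factor 1 was nearly equal as Ca_TC00013, with 67.2 in root tip and 64.9 in root, and lower as Ca_TC00014, with 11.2 in root tip and 31.9 in root. Of the lipoxygenase and jasmonate transcripts 5 of 20 reached the minimum, and the highest of them, lipoxygenase 1 (Ca_TC35179), had 7.27 in root tip and 16.3 in root.

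Defence and secondary metabolism were mixed, and their counts are to be read against 22.2% higher and 19.1% lower over all transcripts compared. WRKY40, a stress-responsive repressor in Arabidopsis, had 2.10 FPKM as Ca_TC01093 in root tip and 13.6 in root, and WRKY65 (Ca_TC00500) had 54.4 in root tip and 202 in root, whereas WRKY14 (Ca_TC01000) had 14.6 in root tip and 3.16 in root. Of the 7 WRKY transcripts matched on descriptions, 3 were lower and 1 was higher. In the listing by family, 12 WRKY transcripts were compared, of which 4 were lower and 2 were higher. A TIR class resistance protein (Ca_TC00337) had 30.3 in root tip and 2.71 in root, and an NB-ARC resistance protein (Ca_TC00321) had 17.6 in root tip and 66.5 in root, while in the whole list of resistance and pathogenesis-related proteins 3 of 9 were lower and 1 was higher. No cytochrome P450 was higher in root tip and 4 of 11 were lower, such as a CYP76C4 match (Ca_TC33158) with 6.16 in root tip and 45.4 in root. The 3 transcripts of glutathione S-transferase TAU 8, a detoxifying enzyme, pointed both ways, with 8.27 (Ca_TC33713), 112 (Ca_TC32085) and 2.27 (Ca_TC33549) in root tip and 1.74, 62.1 and 47.1 in root. Chalcone synthase, the first step to flavonoids, was abundant and close as Ca_TC31878, with 462 in root tip and 573 in root, and higher in root tip as Ca_TC32016, with 7.64 in root tip and 0.530 in root. In the flavonoid and terpene list 2 of 3 were higher and none was lower, and the 2 higher ones were listed as not aligned to the genome.

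The 10 largest differences in each direction were also taken among described transcripts that reached 5 FPKM in root tip or root. Pyruvate decarboxylase-2 (Ca_TC31848), the first enzyme of ethanol fermentation, had 0.343 FPKM in root tip and 130 in root, and it also had 208 in SAM and 5.79 in shoot. Metacaspase 3 (Ca_TC00171), a protease of the metacaspase family, had 0.473 in root tip and 74.0 in root. A protein of the DUF640 family (Ca_TC00467) had 0.033 in root tip and 27.3 in root, and 2 transcripts with no function in their descriptions had 1.15 (Ca_TC02258) and 0.117 (Ca_TC01493) in root tip and 74.1 and 31.1 in root. Toward root tip, 9 of the 10 largest differences were in transcripts listed at 0 in root. These were pyrophosphorylase 6 (Ca_TC00235) with 29.3 FPKM in root tip, glycine decarboxylase P-protein 2 (Ca_TC33025) with 22.7, a Phox/Bem1p protein (Ca_TC33015) with 22.1, NADP-malic enzyme 4 (Ca_TC36043) with 21.6, a cell wall protein of the DUF642 family (Ca_TC01187) with 21.0, an oxidoreductase (Ca_TC34076) with 18.6, polypyrimidine tract-binding protein 2 (Ca_TC12847) with 18.1, mitogen-activated protein kinase 16 (Ca_TC32264) with 16.7 and a cysteinyl-tRNA synthetase (Ca_TC34442) with 15.5. Pyrophosphorylase 6 had 4.02 to 6.68 FPKM in SAM, shoot, root hair and nodule. Of the transcripts in this paragraph, Ca_TC31848, Ca_TC33025, Ca_TC33015, Ca_TC36043, Ca_TC34076, Ca_TC32264 and Ca_TC34442 were listed as not aligned to the genome. Ca_TC32264 had 41785 FPKM in nodule. The tenth, an RNA-binding protein (Ca_TC00682), had 24.9 in root tip and 0.10 in root.

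With root at an FPKM of at least 0.5, a choice made after the values were seen, the described transcripts highest toward root tip were of other kinds. Aconitase 3 (Ca_TC31923), of the citric acid cycle and listed as not aligned to the genome, had 20.7 FPKM in root tip and 0.690 in root. A heavy metal transport/detoxification protein (Ca_TC01637) had 28.2 in root tip and 1.39 in root. A DUF642 transcript (Ca_TC01188) that overlaps Ca_TC01187 in position, so that reads are shared between them, had 183 in root tip and 14.6 in root. A lipid-transfer protein (Ca_TC00834) had 203 in root tip and 19.3 in root, and among the 31 tissues/organs it was highest in root tip, with 0.220 in root hair. A Sec14p-like lipid transfer protein (Ca_TC00987) had 107 in root tip and 9.91 in root, against 222 in root hair.

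Most of the strongest transcripts had no description in the tables used. The 5 highest in root tip were Ca_TC19466 with 9231 FPKM in root tip and 1347 in root, Ca_TC21904 with 6772 in root tip and 463 in root, Ca_TC04120 with 5621 in root tip and 2523 in root, Ca_TC19464 with 4368 in root tip and 536.5 in root, and Ca_TC02453 with 4256 in root tip and 1308 in root. All 5 were at least 1 higher in root tip, and 3 of them were highest there among all tissues/organs. The 5 highest in root had far larger values. Ca_TC21042 had 590 in root tip and 33627 in root, Ca_TC03246 had 1002 in root tip and 19192 in root, Ca_TC07080 had 125 in root tip and 13377 in root, Ca_TC05643 had 574 in root tip and 11142 in root, and Ca_TC19078 had 120 in root tip and 10551 in root. All 5 were highest in root among the 31 tissues/organs. Ca_TC07080 and Ca_TC19078 were nearly absent from root hair, at 0.137 and 0.167.

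The largest difference toward root tip was in Ca_TC18743, with 1620 FPKM in root tip and 1.90 in root, and it had 92.9 in nodule and under 0.5 in root hair, SAM and shoot. Ca_TC09023 followed with 384 in root tip and 0.370 in root, and it had 290 in SAM and 0.287 in shoot. Ca_TC02483 and Ca_TC04655 had 229 and 115 in root tip and were listed at 0 in root, and Ca_TC01478 had 146 in root tip and 0.420 in root. The largest toward root were Ca_TC30840 with 0.147 in root tip and 436 in root, Ca_TC10863 with 0.880 in root tip and 471 in root, Ca_TC22246 with 0.0470 in root tip and 238 in root, Ca_TC16961 with 0.843 in root tip and 414 in root, and Ca_TC12768 with 0.733 in root tip and 325 in root.

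Transcription factors were listed by family for 349 transcripts, of which 209 were compared. In the unselected range of the first annotated transcripts, 9 of 83 were higher in root tip (10.8%) and 17 were lower (20.5%). Over all transcripts compared, 22.2% were higher and 19.1% were lower, so the lower share of this range was near that of all transcripts. The family counts below are to be read against these shares. In the other tables, which the study chose on these samples for tissue specificity, coexpression or trait regions, 49 of 126 were higher and 26 were lower, so the counts of families drawn mainly from them are not independent of the values. HMG box proteins, which bend DNA in chromatin, had 4 of 6 higher and none lower, with Ca_TC18001 at 64.4 FPKM in root tip and 1.55 in root. Transcripts listed as CCAAT box factors had 9 of 13 higher and 1 lower, with a median of 1.38. This listing includes histone H2A 12, and histones share the fold of these factors. Ca_TC01499, also counted as higher, overlaps histone H2A 12 in position. The members described as nuclear factor Y subunits were not higher. Subunit A7 (Ca_TC00937) had 26.5 in root tip and 38.1 in root, and subunit B3 is given below. The largest difference in the listing was in Ca_TC10535, with 20.2 in root tip and 2.24 in root, and it was listed at 0 in SAM and shoot. C3H zinc fingers had 4 of 6 higher. Homeobox factors had 7 of 11 lower and none higher, with a median of -1.17, and GRAS factors had 4 of 7 lower and none higher, though the SCARECROW match above was not in this listing. SCARECROW-like 1 (Ca_TC12811) had 20.5 in root tip and 85.5 in root. AP2-EREBP factors had 8 of 15 lower and 2 higher, and the 2 higher, Ca_TC07638 and Ca_TC01430, had 9.99 and 6.76 in root tip and 0.530 and 0.150 in root and were under 0.05 in SAM and shoot.

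Single factors with large differences toward root tip were a bZIP (Ca_TC03645) with 48.5 FPKM in root tip and 2.04 in root, a growth-regulating factor (GRF, Ca_TC22563) with 18.7 in root tip and 0.730 in root, a TPR protein (Ca_TC23935) with 45.1 in root tip and 3.44 in root, a bHLH (Ca_TC04612) with 74.7 in root tip and 6.39 in root and a GATA factor (Ca_TC15696) with 22.3 in root tip and 1.57 in root. GRFs promote cell proliferation in Arabidopsis, and Ca_TC22563 had 19.2 in SAM, 24.5 in embryo and 0.753 in shoot. Further down were a second bZIP (Ca_TC01657) with 10.6 in root tip and 0.400 in root, a second bHLH (Ca_TC09108) with 9.33 in root tip and 0.320 in root, a NOZZLE type factor (Ca_TC27636) with 14.7 in root tip and 1.15 in root, and an MYB (Ca_TC06410) with 17.6 in root tip, 1.33 in root and 139 in root hair. Toward root, beside PHABULOSA, STM, ERF4 and ERF1, were an AP2-EREBP (Ca_TC07704) with 0.373 in root tip and 17.6 in root, a homeobox factor (Ca_TC05640) with 1.59 in root tip and 30.8 in root, a bHLH (Ca_TC01989) with 10.4 in root tip and 86.3 in root, nuclear factor Y subunit B3 (Ca_TC00831) with 0.517 in root tip and 10.5 in root, a further AP2-EREBP (Ca_TC09861) with 0.023 in root tip and 4.71 in root, and ovate family protein 14 (Ca_TC01225) with 2.06 in root tip and 13.8 in root.

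**Figure D4:**
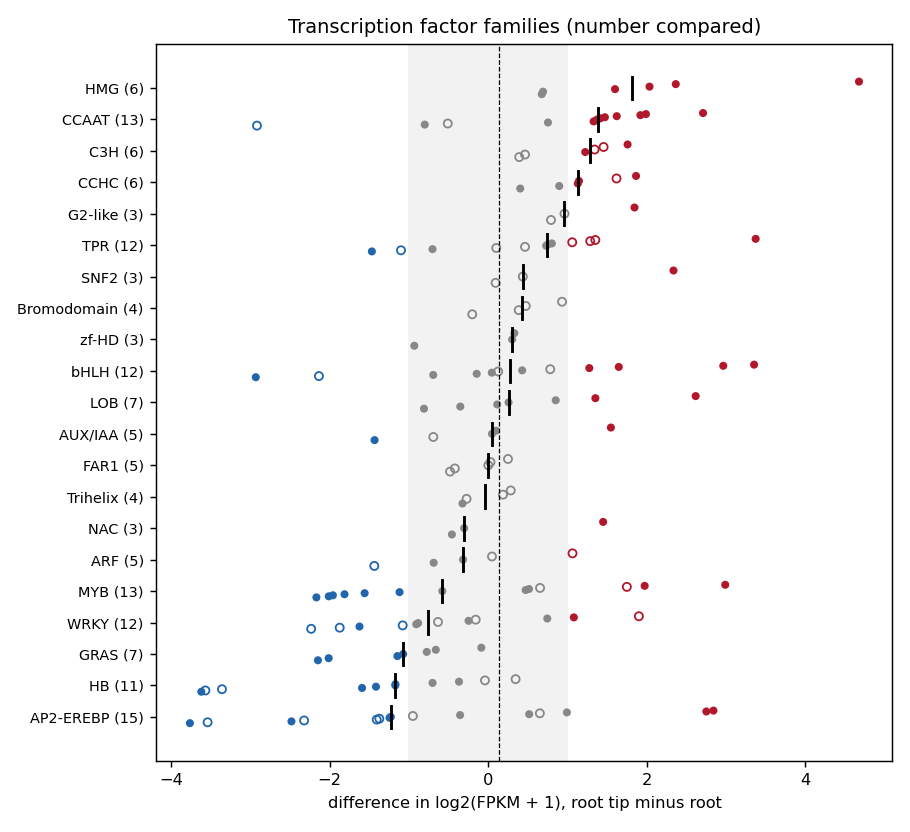
Each point is 1 transcription factor transcript, placed by its difference in log2(FPKM + 1), root tip minus root, for families with at least 3 members compared. Open circles belong to the unselected range and filled ones to tables the study chose on these samples, black bars are medians and the dashed line is the median over all transcripts. HMG, CCAAT, C3H and CCHC members lie mostly to the right, and HB, GRAS and AP2-EREBP members mostly to the left.

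Transcript type was at hand for the first 1808 transcripts. Of 186 lncRNAs 81 were compared, and 10 of these were higher in root tip (12.3%) and 25 were lower (30.9%), with a median of -0.52. Of 1622 PCGs (protein-coding genes) 1330 were compared, and 282 were higher (21.2%) and 259 were lower (19.5%), with a median of 0.09. The 95% exact binomial intervals were 6.08% to 21.5% for lncRNAs higher and 21.1% to 42.1% for lncRNAs lower, and they cover counting over transcripts only. Where root tip or root reached 5 FPKM, 7 of 40 lncRNAs were higher and 14 were lower, while 232 of 945 PCGs were higher and 216 were lower. The lncRNA counts depend on the pseudocount, and with 0.1 in place of 1 they were 21 higher and 37 lower of 81. With both tissues/organs required to reach 0.5, 47 lncRNAs were left, of which 7 were higher and 12 were lower.

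Of the transcripts listed as not aligned to the reference genome, 1998 were at hand and 572 were compared. In root tip 190 of them (33.2%) were higher and 86 (15.04%) were lower, against 22.2% and 19.1% of all transcripts compared. Their median difference was 0.48. Root was listed at 0 for 65 of the 190, and nodule was the highest tissue/organ for 16 of the 190, against 57 of all 5385 transcripts higher in root tip. An example is Ca_TC32264, described as a mitogen-activated protein kinase, with 16.7 FPKM in root tip, 41785 in nodule and a listed 0 in root, and a rubisco small chain transcript (Ca_TC31838) had 8.04 in root tip, 14504 in nodule and a listed 0 in root. A light-harvesting protein (Ca_TC32102) had 10.5 in root tip and 17785 in nodule, and was listed at 0 in root, SAM and shoot. The origin of these transcripts was not tested.

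Both sets were followed through the other 29 tissues/organs, whose values were not used to form them. The 5385 transcripts higher in root tip had their highest median, relative to all transcripts compared, in embryo (0.78 higher in log2(FPKM + 1)), 10-day seed (0.57), gynoecium (0.56) and endosperm (0.56). SAM was at 0.23, and the lowest were mature leaf (-0.48) and pedicel (-0.37). The 4623 transcripts lower in root tip showed nearly the opposite order, with pedicel highest (0.49), followed by mature leaf (0.20) and old flowers (0.20 in flower 4), and with embryo (-1.65) and 10-day seed (-1.31) lowest. Among the transcripts higher in root tip, embryo was the highest of all 31 tissues/organs for 684 (12.7%) and gynoecium for 592 (11.0%), against 5.85% and 6.92% of all transcripts compared. Among the transcripts lower in root tip, pedicel was the highest for 413 (8.93%), against 4.20% of all. Root tip itself was the highest for 846 (15.7%) of the transcripts higher in it and root for 1379 (29.8%) of those lower, but these 2 columns formed the sets.

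**Figure D5:**
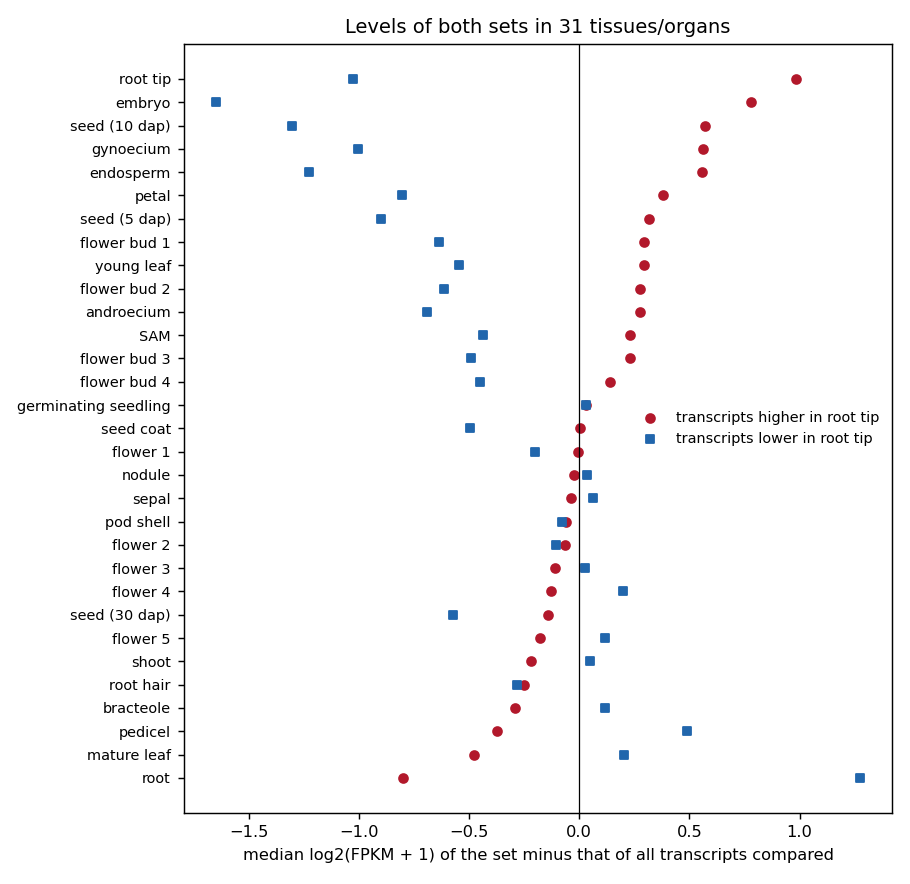
For each of 31 tissues/organs, the median log2(FPKM + 1) of the transcripts higher in root tip (red circles) and lower in root tip (blue squares) is given minus the median of all transcripts compared. Root tip and root are the tissues/organs that formed the sets, and among the others the red circles lie farthest right in embryo and the blue squares farthest right in pedicel.

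The other growing tip of the plant was compared in the same way, as SAM minus shoot, which shares no sample with root tip minus root. The tissue label of the shoot sample reads root although its title reads shoot. Of the transcripts higher in root tip, 1921 (35.7%) were at least 1 higher in SAM and 311 (5.78%) were lower. Of the transcripts lower in root tip, 613 (13.3%) were higher in SAM and 1096 (23.7%) were lower, while among all 24239 compared 20.8% were higher and 10.8% were lower. Over the 24746 transcripts with at least 0.5 FPKM in SAM or shoot, 23.2% were higher in SAM and 11.7% were lower. Examples higher in both tips with a description were the ribosomal protein L10 family member (Ca_TC00109), with 41.5 FPKM in root tip, 3.12 in root, 20.7 in SAM and 0.0770 in shoot, and ATP-citrate lyase B-1 (Ca_TC01059), which supplies cytosolic acetyl-CoA, with 589 in root tip, 68.0 in root, 167 in SAM and 34.7 in shoot. Root hair and nodule were also set against root, which they share with root tip as the tissue set against. The transcripts higher in root tip had a median difference of -0.01 in root hair and -0.72 in nodule. Those lower in root tip had -1.66 in root hair and -2.35 in nodule. Over all transcripts compared, these medians were -0.43 in root hair and -1.32 in nodule. Root values also formed both sets, so the order of these medians is in part set by that choice.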

How the data were processed

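RNA-seq libraries of 32 chickpea tissues/organs were mapped by the authors with bowtie2 to a merged transcript assembly, quantified with RSEM, and averaged over replicates. The deposited files hold 1 FPKM value per transcript and tissue/organ, normalized by the authors for transcript length and library size. The files hold neither read counts nor replicate values, so depth per value and replicate error were not analysed here. The 20-day seed file was left out, since its values were read as estimated counts. No value columns of other series were present.

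Values were used as deposited, with a pseudocount of 1 and a minimum FPKM of 0.5 in either tissue/organ (Python 3.11.15, pandas 2.3.3, numpy 2.4.6, scipy 1.17.1 for exact intervals, matplotlib 3.10.9). With 1 value per tissue/organ no test was made, and counts and medians were set beside those over all transcripts compared. Descriptions, families, types and alignment status came from the study's tables, which were held in part. There were 24 lists matched on descriptions, and they, the 31 markers and the members were chosen with earlier results of these data known. Transcripts were named by rule: the 5 highest in each tissue/organ, the 5 largest differences in each direction, the 10 largest in each direction among described ones with an FPKM of at least 5, up to 3 per list and direction (the clearest are given), the markers, and the 10 largest per direction among transcription factors. Further list and family members, such as abundant ones or copies with the same description, were added after their values were seen. Calculations were tested on simulated data. Alternatives were other minimums, a pseudocount of 0.1, 3 scalings, leaving out transcripts not aligned to the genome, and a difference of at least 2. A minimum in both tissues/organs and rounding of root tip values were added after seeing the data.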

Additional observations from a re-analysis of the deposited data

Results flagged for a closer look

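In 11 described transcripts that reached 5 FPKM, the root tip and the shoot apex lay on opposite sides of the organ each was set against, by at least 2 on the log2(FPKM + 1) scale in both. Among all 24239 transcripts compared, 35 were at least 2 higher in root tip and at least 2 lower in SAM, and 90 were the reverse. The 11 are those of them with a description and enough FPKM. With 1 value per tissue/organ, the difference between the 2 comparisons was not tested. The values below are root tip minus root, followed by SAM minus shoot.

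A pair of transcripts were higher in root tip and lower in SAM. Pleiotropic drug resistance 12 (Ca_TC01201), an ABC transporter, was at 2.46 and then -3.23, with 76.7 FPKM in root tip, 13.2 in root, 4.13 in SAM and 47.0 in shoot. Polypyrimidine tract-binding protein 2 (Ca_TC12847), a splicing regulator, was at 4.26 and then -2.44, and it was listed at 0 in root.

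The other 9 were lower in root tip and higher in SAM. Pyruvate decarboxylase-2 (Ca_TC31848) was at -6.61 and then 4.94. GA requiring 3 (Ca_TC01080) was at -4.50 and then 2.22, with 2.98 FPKM in root tip, 88.9 in root, 16.7 in SAM and 2.79 in shoot. UDP-D-glucuronate 4-epimerase 4 (Ca_TC32772), which makes a pectin precursor, was at -4.04 and then 3.40. A nodulin MtN3 family protein (Ca_TC02226), of the family of sugar carriers, was at -3.45 and then 2.55. Phosphate 2 (Ca_TC33227), a regulator of phosphate carriers in Arabidopsis, was at -3.27 and then 2.49. A nucleoside triphosphate hydrolase (Ca_TC00695), listed at 0 in root tip, was at -3.0 and then 3.08. A wound-responsive family protein (Ca_TC01754) was at -2.76 and then 2.55, an NB-ARC resistance protein (Ca_TC31847) at -2.52 and then 3.04, and a transcript described as binding (Ca_TC32186) at -2.18 and then 3.73. Of these 9, Ca_TC31847, Ca_TC31848, Ca_TC32186, Ca_TC32772 and Ca_TC33227 were listed as not aligned to the genome.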

How the results depend on the processing

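Other minimums in either tissue/organ could not alter the 5385 higher and 4623 lower transcripts, since with 1 added a difference of at least 1 needs at least 1 FPKM, so they say nothing about stability. The counts were 7126 and 5946 with a pseudocount of 0.1, 5718 and 4378 after scaling to a common sum, 4654 and 5041 after median-ratio scaling, which shifted the median by -0.11 and took the share of higher among those at least 1 apart to 48.0% against 53.8%, and 5111 and 4799 after quantile normalization. At a difference of at least 2 they were 1549 and 1797. Without transcripts not aligned to the genome, 33 list members were higher in root tip, fewer than with them. A large part of the list members counted toward root tip were thus such transcripts. As a class, 33.2% of these were higher, against 22.2% of all transcripts compared. Among ribosomal proteins alone, 12 were higher without them, against 24 as reported. A minimum of 0.5 FPKM in both tissues/organs was chosen after seeing the data. With it, 28 transcription factors and 12 lncRNAs were lower, against 43 and 25 as reported. Of unaligned transcripts, 80 were then higher and 50 lower, against 190 and 86. With a pseudocount of 0.1, 21 lncRNAs were higher, against 10. Of 1163 values of named transcripts under these alternatives, 16 crossed the difference of 1. Among transcripts at least 1 apart as reported, 0 values changed sign, which says little about stability. A pseudocount or a minimum cannot change a sign, and the scalings shifted the median by only -0.11 to 0.06. Many named transcripts were also chosen for their large differences, so few could cross 1. Changes of sign in smaller differences were not counted. No paired analysis was possible because each tissue/organ has 1 value and no replicate numbers are shared, and no replicate could be left out. Low values and zeros limit transcripts near the minimum.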
